A study of Mus musculus with 51 samples.

Results

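The 10 genes described here carry antigen presentation by MHC class II: H2-Aa, H2-Ab1 and H2-Eb1, H2-DMa and H2-DMb1, H2-Oa and H2-Ob, Cd74, Ciita and Ctss. They were chosen by gene symbol, and 9 of the 10 had 1 annotated probe set each, out of 19505 gene symbols measured in the series. Cd74, the invariant chain, was not analysed here. Expression was measured with microarrays in RNA of whole, perfused and lavaged lung from male mice 6 to 8 weeks old. All mice, controls included, had been sensitized through the skin on 2 occasions with 1% methylene diphenyl diisocyanate (MDI), a reactive monomer of polyurethane manufacture and a cause of occupational asthma. The airway exposures fell on days 15, 16, 19 and 20 and were either MDI reacted with glutathione (called MDI below) or a control in which MDI and glutathione had been reacted apart, and lungs were collected 48 h after the last one. The groups were 3 MDI and 3 control arrays of BALB/c mice, 3 MDI and 5 control arrays of C57BL/6 mice that also received crofelemer, 7 MDI and 9 control arrays of mice lacking B cells (strain B6.129S2-Ighmtm1Cgn/J, called B-cell deficient below, which carries a disrupted immunoglobulin mu heavy chain gene on a C57BL/6 background in every cell), and 13 MDI and 6 control arrays of C57BL/6 mice. Crofelemer, a chloride channel inhibitor, was given through the nose at 4 mg/kg, 4 h before each airway exposure, to the MDI and control mice of its groups. Airway controls without skin sensitization were not analysed here, so every difference below is one between lungs of sensitized mice.

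MHC class II molecules are pairs of an alpha and a beta chain that show peptides from engulfed proteins to CD4+ T cells. H2-Aa and H2-Ab1 encode the 2 chains of I-A, and H2-Eb1 encodes the beta chain of I-E, whose alpha chain, H2-Ea, is not made in mice of the H2-b haplotype such as C57BL/6 and is made in H2-d mice such as BALB/c. The chains are escorted by the invariant chain, which cathepsin S (Ctss) trims to a short remnant; H2-DM (H2-DMa with H2-DMb1 or H2-DMb2) exchanges that remnant for peptide, and H2-O (H2-Oa with H2-Ob), found mainly in B cells, restrains H2-DM. Ciita is the coactivator that switches class II genes on; it binds no DNA itself but docks on factors held at the promoters. In the lung, dendritic cells, B cells, macrophages and alveolar type 2 cells carry class II.

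In the RefSeq annotation of GRCm38.p6, the 7 H2 members lie on chromosome 17, Ciita on chromosome 16 and Ctss on chromosome 3. The class II promoters share an arrangement that is read by RFX, NF-Y and Ciita. Its letters are shown here as a description of the sequence, and their part in the measured signals was not tested. Promoter windows of 300 bases (250 before the gene start and 50 after it) from RefSeq matched 7 of the 9 measured members. Of these, 5 held the letters GNAAC followed, 10 to 40 bases later, by TGATTGG, the Y box bound by NF-Y. Both motifs were searched on both strands and their letters were chosen after the windows had been read. The pair was present in 0.828% of all 32851 windows, and TGATTGG alone in 7.82%. Below, capitals mark GNAAC and TGATTGG, and each stretch runs 5′ to 3′ on the strand of its gene: H2-Aa on the minus strand at chr17:34287859-34287912, and the others on the plus strand, H2-Eb1 at chr17:34305768-34305820, H2-DMb1 at chr17:34153089-34153142, H2-Oa at chr17:34092295-34092348 and H2-Ob at chr17:34238810-34238860.
H2-Aa: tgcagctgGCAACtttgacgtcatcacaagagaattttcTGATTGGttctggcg
H2-Eb1: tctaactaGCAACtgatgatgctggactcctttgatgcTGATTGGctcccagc
H2-DMb1: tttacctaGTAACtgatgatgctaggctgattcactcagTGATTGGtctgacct
H2-Oa: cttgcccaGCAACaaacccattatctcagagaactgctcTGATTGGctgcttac
H2-Ob: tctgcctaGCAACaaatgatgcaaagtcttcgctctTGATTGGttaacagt
Between the 2 motifs lay 23 bases in H2-Ob, 25 in H2-Eb1 and 26 in H2-Aa, H2-DMb1 and H2-Oa. H2-DMa had 2 windows, and neither held these letters.

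Ctss lies outside the H2 region and its window held no TGATTGG. It held GAAA, any 2 bases and GAAA again, the letters of an interferon-response element, on the plus strand at chr3:95526745-95526794, where the capitals mark the match, 21 bases before the gene start.
Ctss: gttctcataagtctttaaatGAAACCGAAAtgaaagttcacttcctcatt
These letters were found in 3.44% of the 32851 windows and in no other member's window. Matches of letters are descriptions of the sequence and were not tested for binding.

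Values below are deposited log2 signals, and a difference of 1 is a 2-fold difference on that scale. Groups were compared with limma on 1 model of the 8 group means, Benjamini-Hochberg adjustment covered the 22206 probe sets, and a gene is said to have risen or fallen where its adjusted p was under 0.05; errors of differences are SE. The labels do not say whether each array came from its own mouse, so p-values measure only the spread between these arrays. The mean of all probe sets per array was 8.02 to 8.07 in B-cell deficient mice, 7.37 to 7.40 in BALB/c, 7.43 to 7.48 with crofelemer and 7.48 to 7.51 in C57BL/6 without it, so levels were compared across genotype and strain only after quantile normalization over the 49 arrays. The 5 measured lung markers had a mean of 17.14 to 18.09 on every array. Ighm was not analysed here; Cd79a, a B-cell receptor subunit, was lower in B-cell deficient than in C57BL/6 controls by 6.52 on the log2 scale (-6.52 ± 0.23, adjusted p = 3.85e-28). The records were submitted in 3 blocks, called lots below, which the labels do not name as batches.

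**Figure D1:**
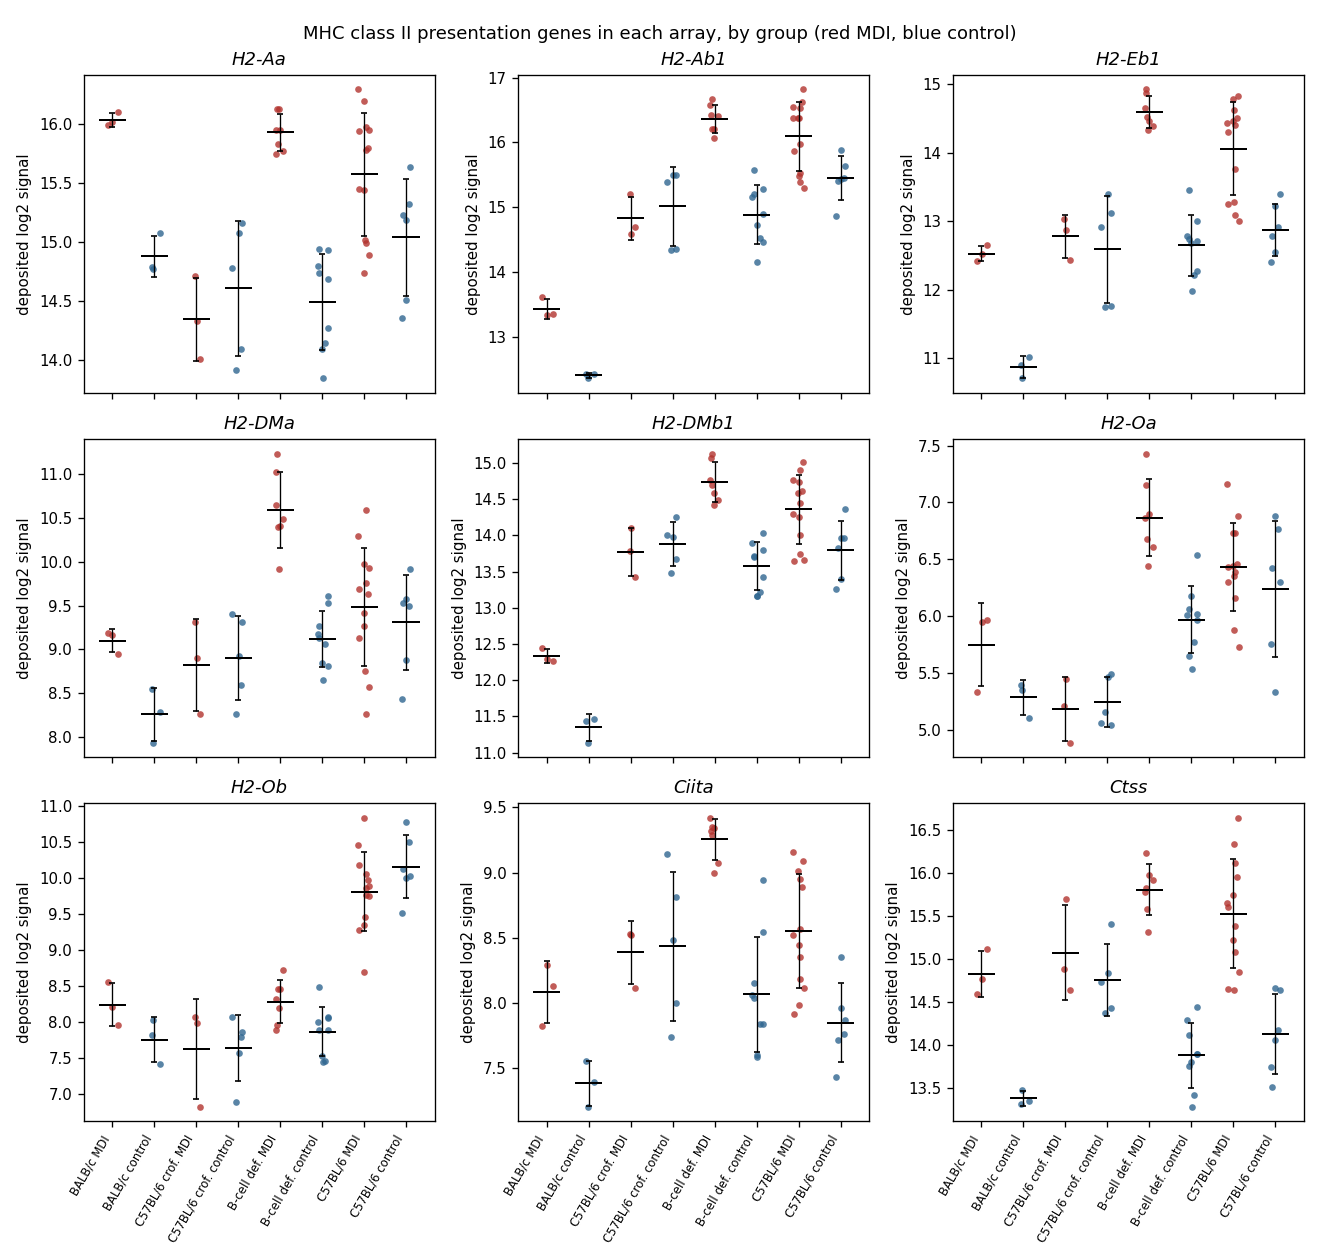
Deposited log2 signal (vertical axes) of the 9 measured genes in each of 49 arrays, one point per array, by group (horizontal axis); horizontal lines are group means and vertical bars are 1 SD. MDI groups (red) stand left of their controls (blue); in B-cell deficient mice the 2 groups of H2-Eb1 do not overlap (14.33 to 14.93 with MDI, 11.98 to 13.46 in controls), and H2-Ob is highest in the 2 C57BL/6 groups without crofelemer.

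MDI was compared with control in B-cell deficient mice to ask how the sensitized lung responds where B cells are missing, and 8 of the 9 measured genes were higher with MDI; 16.2% of all probe sets rose in this comparison. The median log2 fold change was 1.43 over the 9 genes and -0.06 over all probe sets. H2-Eb1 had a lowest, median and highest signal of 14.33, 14.53 and 14.93 in the 7 MDI lungs, against 11.98, 12.72 and 13.46 in the 9 control lungs. Every MDI lung was thus above every control lung, and H2-Eb1 rose by 1.95 ± 0.24 (3.85-fold, adjusted p = 1.62e-08). The I-A chains behaved alike. H2-Aa lay at 15.74, 15.95 and 16.12 with MDI, against 13.85, 14.69 and 14.94 in controls, a rise of 1.43 ± 0.20 (adjusted p = 3.21e-07). H2-Ab1 lay at 16.06, 16.40 and 16.67 with MDI, against 14.16, 14.90 and 15.57 in controls, a rise of 1.48 ± 0.20 (adjusted p = 1.63e-07). Neither gene's groups overlapped.

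The loading and processing genes of B-cell deficient lungs rose as well. Ctss had a lowest, median and highest signal of 15.31, 15.83 and 16.23 with MDI, against 13.28, 13.89 and 14.44 in controls, and rose by 1.93 ± 0.22 (3.80-fold, adjusted p = 2.34e-09). H2-DMa lay at 9.92, 10.49 and 11.23 with MDI, against 8.65, 9.13 and 9.61 in controls, and rose by 1.47 ± 0.24 (adjusted p = 5.15e-06). H2-DMb1, its beta chain partner, rose by 1.16 ± 0.18 (adjusted p = 1.11e-06). None of these 3 genes had groups that overlapped. Ciita lay at 9.00, 9.32 and 9.42 with MDI, against 7.58, 8.04 and 8.94 in controls, also without overlap, and rose by 1.19 ± 0.19 (adjusted p = 2.25e-06). In all, 7 of the 9 genes had every MDI lung above every control lung, against 4.67% of all probe sets.

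The 2 H2-O chains are given apart in these mice. H2-Oa is dim on these arrays: its mean over the 49 arrays was below that of the median probe set, and a filter on dim probe sets left it out of the fit. H2-Oa rose by 0.90 ± 0.18 (adjusted p = 1.23e-04), with MDI lungs at 6.44 to 7.43, against control lungs at 5.54 to 6.54, so the groups overlapped. H2-Ob was the 1 gene that did not pass: its MDI lungs lay at 7.88 to 8.72, against 7.44 to 8.48 in control lungs (0.42 ± 0.21, adjusted p = 0.119). All 9 control arrays of these mice came from lot 2, and the MDI arrays came from lot 1 (4 arrays) and lot 2 (3 arrays). Within lot 2, the 3 MDI arrays against the 9 controls gave the same count of 8 genes, with H2-Eb1 at 2.08 ± 0.22 (adjusted p = 3.15e-06) and Ctss at 2.12 ± 0.19 (adjusted p = 3.74e-07).

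In C57BL/6 mice with B cells, 5 of the 9 genes rose with MDI, against 5.30% of all probe sets, and the median log2 fold change was 0.56 over the 9 genes, beside 0.01 over all probe sets. Ctss had a lowest, median and highest signal of 14.64, 15.60 and 16.64 in the 13 MDI lungs, against 13.51, 14.12 and 14.66 in the 6 control lungs. The groups met only between the 2 lowest MDI lungs and the 2 highest controls, and Ctss rose by 1.40 ± 0.22 (2.63-fold, adjusted p = 9.41e-06). H2-Eb1 lay at 13.01, 14.41 and 14.83 with MDI, against 12.41, 12.85 and 13.40 in controls, and rose by 1.18 ± 0.24 (2.27-fold, adjusted p = 3.67e-04). Ciita, the coactivator, lay at 7.91, 8.52 and 9.16 with MDI, against 7.43, 7.82 and 8.35 in controls, and rose by 0.70 ± 0.18 (adjusted p = 0.00558). H2-Ab1 rose by 0.64 ± 0.20 (adjusted p = 0.0223) and H2-DMb1 by 0.56 ± 0.17 (adjusted p = 0.0205), both with groups that overlapped widely.

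The other 4 genes did not pass in C57BL/6 mice. H2-Aa, the partner of H2-Ab1, lay at 14.74, 15.78 and 16.29 with MDI, against 14.36, 15.21 and 15.63 in controls (0.53 ± 0.20, adjusted p = 0.0614). H2-DMa differed by 0.18 ± 0.23 (adjusted p = 0.688) and H2-Oa by 0.19 ± 0.18 (adjusted p = 0.537). H2-Ob was the 1 member with a mean below its control, at 8.69, 9.85 and 10.83 with MDI, against 9.51, 10.07 and 10.77 in controls (-0.35 ± 0.21, adjusted p = 0.295). No member had groups free of overlap in this comparison, where 0.459% of all probe sets had every MDI array above every control. In lot 1 alone (12 MDI and 4 control arrays) Ctss and H2-Eb1 rose, by 1.38 ± 0.28 (adjusted p = 0.00505) and 1.14 ± 0.30 (adjusted p = 0.0235), while H2-Ab1, H2-DMb1 and Ciita did not pass (adjusted p = 0.170, 0.166 and 0.0927). H2-Ab1 and H2-DMb1 also did not pass without control replicate 6 (adjusted p = 0.0838 and 0.0826), and H2-DMb1 did not pass without control replicate 3 (adjusted p = 0.0728).

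**Figure D2:**
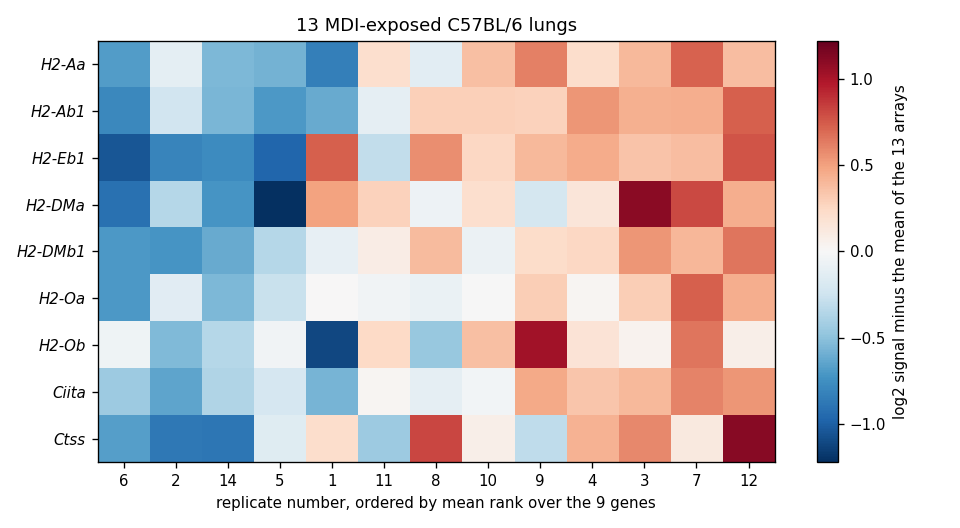
Log2 signal of the 9 genes (rows) in each of the 13 MDI-exposed C57BL/6 lungs (columns, by replicate number) minus the mean of the 13, as colour; columns are ordered by their mean rank over the 9 genes. Replicates 2, 5, 6 and 14 are below the mean in H2-Eb1, H2-DMa, H2-DMb1 and H2-Oa, and replicate 1 is high in H2-Eb1 (14.79) but low in H2-Aa (14.74) and H2-Ob (8.69).

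The 13 MDI-exposed C57BL/6 lungs were not alike, as the plot of their deviations shows. For H2-Eb1, replicates 2, 5, 6 and 14 lay at 13.25, 13.09, 13.01 and 13.29, inside the range of the controls, while the other 9 lay at 13.76 to 14.83, above every control. The same 4 lungs were also the 4 lowest of the 13 in H2-DMa, H2-DMb1 and H2-Oa. Their mean signal of the 7 measured markers of interstitial macrophages and monocytes was 9.98, 9.88, 9.64 and 9.76, within the 9.11 to 9.89 of the controls except for replicate 2, against 9.91 to 10.84 in the other 9 MDI lungs. The mean of 5 T-cell markers was 8.03, 7.80, 7.64 and 7.63 in replicates 2, 5, 6 and 14, against 8.03 to 8.98 in the other 9 MDI lungs and 7.22 to 8.18 in controls. The mean of 10 dendritic cell markers was 7.20, 7.45, 7.07 and 6.98 in the same 4 lungs, against 7.34 to 7.82 in the other 9 and 6.68 to 7.37 in controls. The part of these cells in the spread was not tested. Replicate 1 did not follow the others: it was the lowest of the 13 in H2-Aa (14.74) and H2-Ob (8.69) and second highest in H2-Eb1 (14.79).

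In BALB/c mice, which carry the H2-d haplotype, 1 of the 9 genes rose with MDI, against 0.261% of all probe sets. That gene was H2-Eb1, at 12.52, 12.65 and 12.42 in the 3 MDI lungs, against 11.02, 10.90 and 10.71 in the 3 control lungs, a rise of 1.65 ± 0.39 (3.15-fold, adjusted p = 0.0389). The groups were far apart for H2-Eb1, yet leaving out any 1 of the 6 arrays moved its adjusted p to between 0.0763 and 0.256. Ctss lay at 14.77, 15.11 and 14.59 with MDI, against 13.35, 13.31 and 13.48 in controls (1.44 ± 0.36, adjusted p = 0.0554). H2-Aa lay at 16.01, 16.10 and 15.99 with MDI, against 15.08, 14.79 and 14.77 in controls (1.15 ± 0.33, adjusted p = 0.159). H2-Ab1 lay at 13.33, 13.35 and 13.61 with MDI, against 12.42, 12.43 and 12.36 in controls (1.03 ± 0.33, adjusted p = 0.276). These 3 genes, like H2-DMa, H2-DMb1, Ciita and H2-Eb1, had every MDI lung above every control lung, which makes 7 of the 9 members, against 7.48% of all probe sets. With H2-DMa at 0.84 ± 0.39, H2-DMb1 at 0.99 ± 0.28, Ciita at 0.70 ± 0.30, H2-Oa at 0.46 ± 0.29 and H2-Ob at 0.49 ± 0.34 (adjusted p from 0.165 to 0.999), the median over the 9 genes was 0.99, beside -0.01 over all probe sets. With 3 arrays a group, the call depended on how the spread was estimated: fitted on the 6 BALB/c arrays alone, 5 of the 9 genes rose. The count over all probe sets moved with the fit as well. It was 67 in the main fit, in either direction, and 55 to 283 over the settings other than omission of 1 array.

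In C57BL/6 mice given crofelemer, none of the 9 genes passed the test for MDI. By limma, 0.0540% of all probe sets passed in either direction in this comparison of 3 MDI with 5 control arrays; none of the 9 genes had an unadjusted p under 0.05 either, and their adjusted p-values ran from 0.874 to 0.997. H2-Eb1 lay at 12.43, 13.04 and 12.88 with MDI, against 12.92, 11.76, 13.40, 11.75 and 13.12 in controls, a difference of 0.19 ± 0.35 with a 95% interval of -0.51 to 0.90. Ctss lay at 14.64, 14.88 and 15.70 with MDI, against 14.73, 14.43, 14.84, 14.37 and 15.41 in controls (0.32 ± 0.32, interval -0.32 to 0.96). All 9 members overlapped between the groups, where 1.80% of all probe sets had every MDI array above every control, and the intervals of H2-Aa and H2-Ab1 ran from -0.85 to 0.33 and from -0.78 to 0.40. The intervals of these 4 genes lie below the rises estimated in B-cell deficient mice, a difference that was not tested, and they hold smaller changes in either direction.

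**Figure D3:**
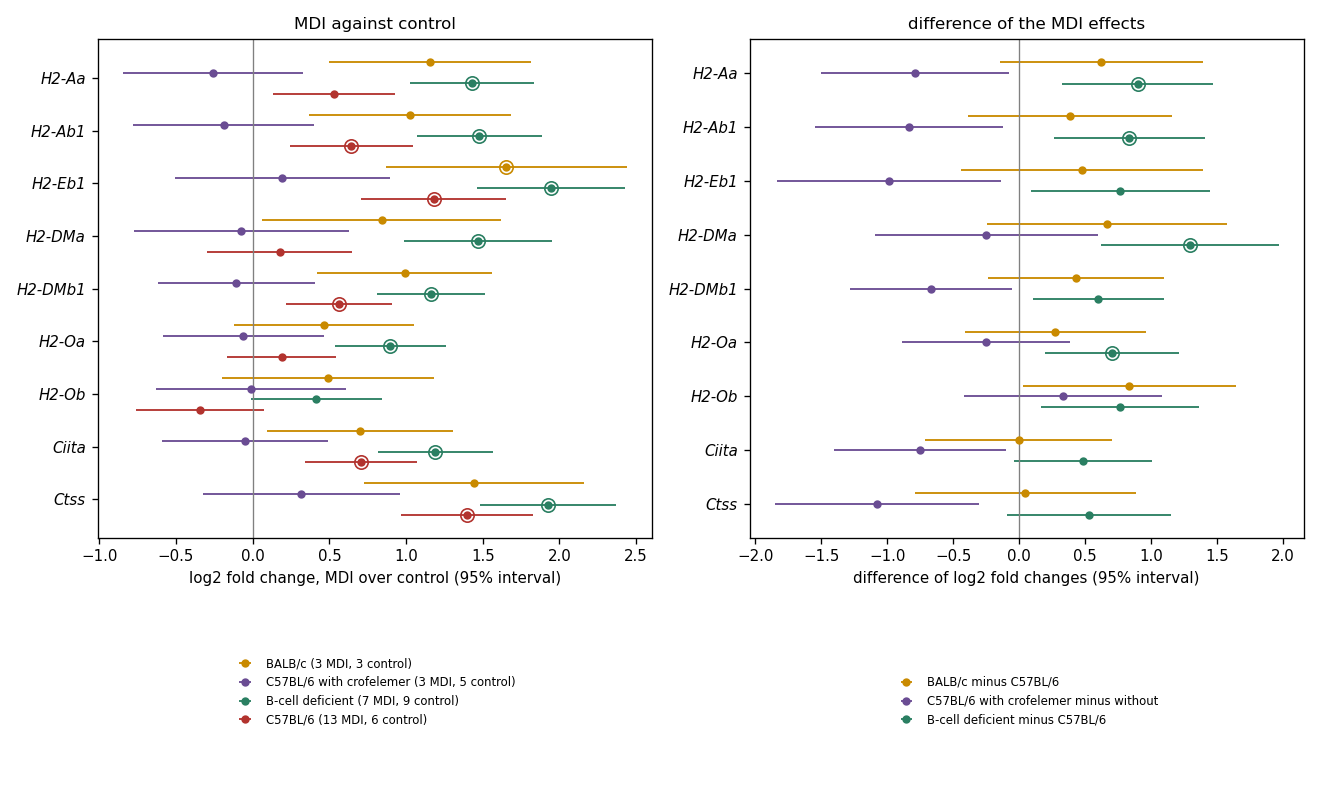
Left, log2 fold change of MDI over control for the 9 genes in each of 4 settings; right, difference of these fold changes between settings. Points are limma estimates, lines are 95% intervals, and rings mark an adjusted p under 0.05; rings are on 8 genes for B-cell deficient mice, 5 for C57BL/6, 1 for BALB/c and 0 with crofelemer, and on 4 differences, all of B-cell deficient minus C57BL/6.

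Whether MDI acted differently between settings was tested on the differences themselves. In B-cell deficient minus C57BL/6 mice, the effect of MDI was larger for 4 of the 9 genes, against 9.27% of all probe sets. H2-DMa differed most, by 1.29 ± 0.34 (adjusted p = 0.00574): its fold change was 1.47 in B-cell deficient mice, against 0.18 in C57BL/6 mice. H2-Aa differed by 0.90 ± 0.28 (adjusted p = 0.0210), H2-Ab1 by 0.83 ± 0.28 (adjusted p = 0.0314) and H2-Oa by 0.71 ± 0.25 (adjusted p = 0.0405). The other 5 genes differed by 0.49 to 0.77 and did not pass (adjusted p from 0.0606 to 0.215). The calls, more than the sizes, moved with single arrays. Without the 4 B-cell deficient control arrays of narrowest spread over all probe sets, none of the 9 genes passed by limma, with H2-DMa at 1.13 ± 0.37, H2-Aa at 0.67 ± 0.30, H2-Ab1 at 0.65 ± 0.30 and H2-Oa at 0.56 ± 0.27 (adjusted p from 0.0740 to 0.249). Without C57BL/6 control replicate 2 the count was 1, and without C57BL/6 control replicate 4, B-cell deficient control replicate 5 or 6 or B-cell deficient MDI replicate 6 it was 2. H2-Oa was the least stable of the 4, with an adjusted p of 0.0505 to 0.105 without any of 13 single arrays (C57BL/6 control replicates 1, 2, 4 and 5, C57BL/6 MDI replicates 6 and 14, B-cell deficient MDI replicates 2, 3, 5 and 6, and B-cell deficient control replicates 1, 5 and 6).

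For crofelemer minus none, 0 of the 9 differences passed (0.423% of all probe sets did, in either direction), though 6 of the 9 had an unadjusted p under 0.05. Unadjusted counts in this paragraph stand without the share of all probe sets at that threshold, so they are descriptions only. Ctss had the largest difference, -1.08 ± 0.38 (adjusted p = 0.225), followed by H2-Eb1 at -0.99 ± 0.42 and H2-Ab1 at -0.83 ± 0.35 (adjusted p = 0.317 and 0.315). A smaller effect of MDI under crofelemer was therefore not shown for any single member after adjustment. For BALB/c minus C57BL/6, none of the 9 passed by limma, beside 0.0270% of all probe sets, and 1 had an unadjusted p under 0.05 (H2-Ob, 0.84 ± 0.40, adjusted p = 0.612). Ciita and Ctss differed by 0.00 ± 0.35 and 0.05 ± 0.42 between the strains, with intervals of -0.71 to 0.70 and -0.79 to 0.88.

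The direct comparison of crofelemer with none, within MDI-exposed C57BL/6 mice, showed 6 of the 9 genes lower with crofelemer, against 17.5% of all probe sets. H2-Ob fell most: it lay at 6.82, 8.07 and 7.98 with crofelemer, against a lowest, median and highest of 8.69, 9.85 and 10.83 without it (-2.18 ± 0.27, adjusted p = 4.84e-09). H2-Oa lay at 4.89, 5.21 and 5.45 with crofelemer, against 5.73, 6.43 and 7.16 without it (-1.25 ± 0.23, adjusted p = 1.93e-05). Both H2-O genes were free of overlap. So were both I-A chains, with H2-Aa at 14.01, 14.71 and 14.33 with crofelemer, against 14.74 to 16.29 without it (-1.22 ± 0.26, adjusted p = 1.59e-04), and H2-Ab1 at 14.70, 15.20 and 14.58, against 15.30 to 16.82 (-1.26 ± 0.26, adjusted p = 1.01e-04). On these deposited values, the 4 members compare with 8.87% of all probe sets below without overlap. After quantile normalization both I-A chains overlapped. H2-Aa then reached 14.94 with crofelemer, against a lowest of 14.84 without it, and H2-Ab1 reached 15.36, against 15.24. H2-Ob and H2-Oa stayed free of overlap on that scale. H2-Eb1 fell by 1.28 on the log2 scale (-1.28 ± 0.31, adjusted p = 8.63e-04). H2-DMb1 passed narrowly (-0.58 ± 0.22, adjusted p = 0.0376), and it did not pass in 12 of 23 other fits. Among these was quantile normalization (adjusted p = 0.109). Others left out MDI replicate 3, 7, 8 or 12 or crofelemer MDI replicate 1 or 2 (adjusted p from 0.0523 to 0.282). H2-DMa (-0.66 ± 0.30), Ciita (-0.16 ± 0.24) and Ctss (-0.45 ± 0.28) did not pass (adjusted p = 0.0940, 0.639 and 0.221).

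In control mice, crofelemer against none gave a different picture by gene. H2-Ob lay at 8.07, 7.79, 7.57, 6.89 and 7.86 with crofelemer, against 9.51, 10.07 and 10.77 (lowest, median, highest) without it, and fell by 2.52 on the log2 scale (-2.52 ± 0.26, adjusted p = 1.56e-11). Its groups did not overlap, as for 12.7% of all probe sets. H2-Oa lay at 5.06, 5.04, 5.47, 5.16 and 5.49 with crofelemer, against 5.33, 6.36 and 6.88 without it, and fell too (adjusted p = 1.90e-04). These 2 of 9 genes were lower, against 21.4% of all probe sets. Ciita, in contrast, was the 1 gene that was higher, at 9.14, 8.00, 8.48, 7.74 and 8.81 with crofelemer, against 7.43, 7.82 and 8.35 without it (0.59 ± 0.22, adjusted p = 0.0322; 17.6% of all probe sets were higher). Its groups overlapped, and it did not pass in lot 1 alone (0.37 ± 0.27, adjusted p = 0.324) or without any of 6 single arrays, control replicates 1, 5 and 6 and crofelemer control replicates 1, 3 and 5 (adjusted p from 0.0518 to 0.165). Ctss differed by 0.63 ± 0.26 (adjusted p = 0.0547) and passed in 8 of 18 other fits, among them quantile normalization (adjusted p = 0.0143) and the omission of C57BL/6 control replicate 2 or 4 or crofelemer control replicate 2 or 4 (adjusted p from 0.0316 to 0.0441), and the chains of I-A and I-E by -0.43 to -0.29 (adjusted p = 0.157 to 0.452). Thus H2-Ob and H2-Oa were lower with crofelemer whether or not the mice had MDI, while the call for H2-Aa, H2-Ab1 and H2-Eb1 was made in MDI mice only; as given above, no difference between the 2 settings passed for any member.

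**Figure D4:**
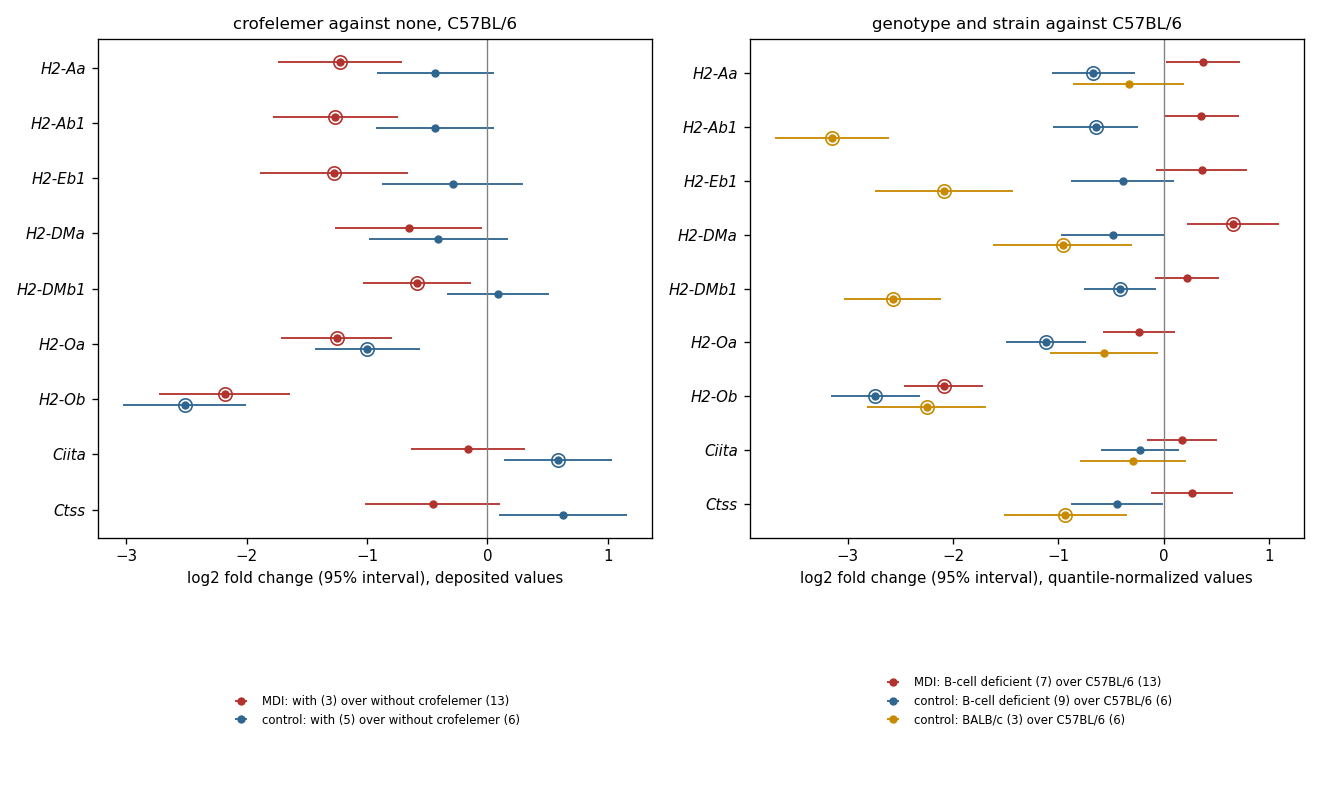
Log2 fold changes (horizontal axes) of the 9 genes for crofelemer over none in C57BL/6 mice (left, deposited values) and for B-cell deficient or BALB/c over C57BL/6 mice (right, quantile-normalized values); points are limma estimates, lines 95% intervals and rings an adjusted p under 0.05. H2-Ob is at -2.09 or below in all 5 comparisons drawn, and H2-Ab1 (-3.15), H2-DMb1 (-2.57), H2-Ob (-2.25) and H2-Eb1 (-2.09) stand lowest for BALB/c.

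Genes of B cells moved in the same groups as H2-Ob. The mean signal of 9 measured B-cell markers was 5.89 to 6.32 with MDI and crofelemer and 6.12 to 6.31 in crofelemer controls, against 7.01 to 8.41 with MDI and 7.31 to 8.23 in controls without crofelemer. All 9 of the 9 markers were lower with crofelemer, both with MDI (17.5% of all probe sets) and in controls (21.4%). Cd79a was at -2.63 ± 0.29 (limma, adjusted p = 2.64e-10) and -2.80 ± 0.27 (adjusted p = 5.86e-12). Some markers of other cells passed as well: Cd209a, a dendritic cell lectin, fell with crofelemer in both settings (-2.32 ± 0.28 and -1.80 ± 0.26). Of the 10 dendritic cell markers, 5 were lower with MDI and 3 in controls, and 1 was higher in each. In controls 21.4% of all probe sets were lower and 17.6% higher, near the counts of these markers. The part of these cell types in the differences of class II genes was not tested. In tissue RNA, fewer cells of a type and less RNA per cell cannot be told apart. Crofelemer arrays also had a lower mean over all probe sets than the other C57BL/6 arrays, so that treatment and any separate processing cannot be told apart.

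The genotype comparison set the class II levels of B-cell deficient lungs beside those of C57BL/6 lungs. In controls the 2 groups shared no lot: all 9 B-cell deficient arrays were in lot 2. The C57BL/6 controls were in lot 1 (4 arrays) and lot 3 (2 arrays). Genotype and lot or separate processing therefore cannot be told apart between these control arrays. On quantile-normalized values, control lungs of B-cell deficient mice had 5 of the 9 genes lower than C57BL/6 controls, against 24.6% of all probe sets. H2-Ob was 7.47 ± 0.32 (SD, n = 9) in B-cell deficient lungs and 10.21 ± 0.41 (SD, n = 6) in C57BL/6 lungs, a difference of -2.74 ± 0.21 (adjusted p = 5.51e-15) with no overlap, as for 9.35% of all probe sets. H2-Oa differed by -1.12 ± 0.19 (adjusted p = 3.69e-06). The other 3 that were lower, H2-Aa (-0.67 ± 0.20, adjusted p = 0.00425), H2-Ab1 (-0.65 ± 0.20, adjusted p = 0.00652) and H2-DMb1 (-0.42 ± 0.17, adjusted p = 0.0370), did not pass without the 4 narrow control arrays (adjusted p = 0.0954, 0.0943 and 0.292), and H2-DMb1 also failed without any of 8 single control arrays (C57BL/6 replicates 1, 2, 4 and 5 and B-cell deficient replicates 2, 3, 5 and 6, adjusted p from 0.0585 to 0.142) and with lot as a fixed term (adjusted p = 0.0548). H2-Aa did not pass with that term either (-0.62 ± 0.36, adjusted p = 0.226). On deposited values H2-Oa differed by -0.27 ± 0.19 (adjusted p = 0.194) and H2-DMb1 by -0.22 ± 0.18 (adjusted p = 0.276), and neither passed; there the median of all probe sets was itself shifted by 0.54.

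With MDI, H2-Ob was again lower in B-cell deficient lungs, at 7.84 ± 0.32 (SD, n = 7), against 9.93 ± 0.49 (SD, n = 13) in C57BL/6 lungs (-2.09 ± 0.19, adjusted p = 1.76e-12). It was the 1 member that was lower, against 15.7% of all probe sets, and its groups did not overlap (1.94% of all probe sets). H2-DMa was the 1 member that was higher (0.66 ± 0.22, adjusted p = 0.0176; 15.3% of all probe sets), and it did not pass in lot 1 alone (adjusted p = 0.482) or without B-cell deficient MDI replicate 5 or 6 (adjusted p = 0.0528 and 0.0651). The I-A and I-E chains differed by 0.36 to 0.37 and did not pass (adjusted p = 0.102 to 0.208). H2-Oa changed sign with the scale: it was -0.23 ± 0.17 (adjusted p = 0.306) after quantile normalization and 0.43 ± 0.17 (adjusted p = 0.0181) on deposited values, where all probe sets were shifted by a median of 0.53. After quantile normalization H2-Aa was 15.94 ± 0.18 (SD, n = 7) in B-cell deficient lungs with MDI and 15.57 ± 0.47 (SD, n = 13) in C57BL/6 lungs with MDI. All 9 of the 9 B-cell markers were lower in B-cell deficient mice in both settings, against 24.6% of all probe sets in controls and 15.7% with MDI. The markers had medians of -2.58 in controls and -2.63 with MDI, and single markers ran from -6.52 to -1.29 and from -6.18 to -1.31. Their part in the difference of H2-Ob was not tested.

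**Figure D5:**
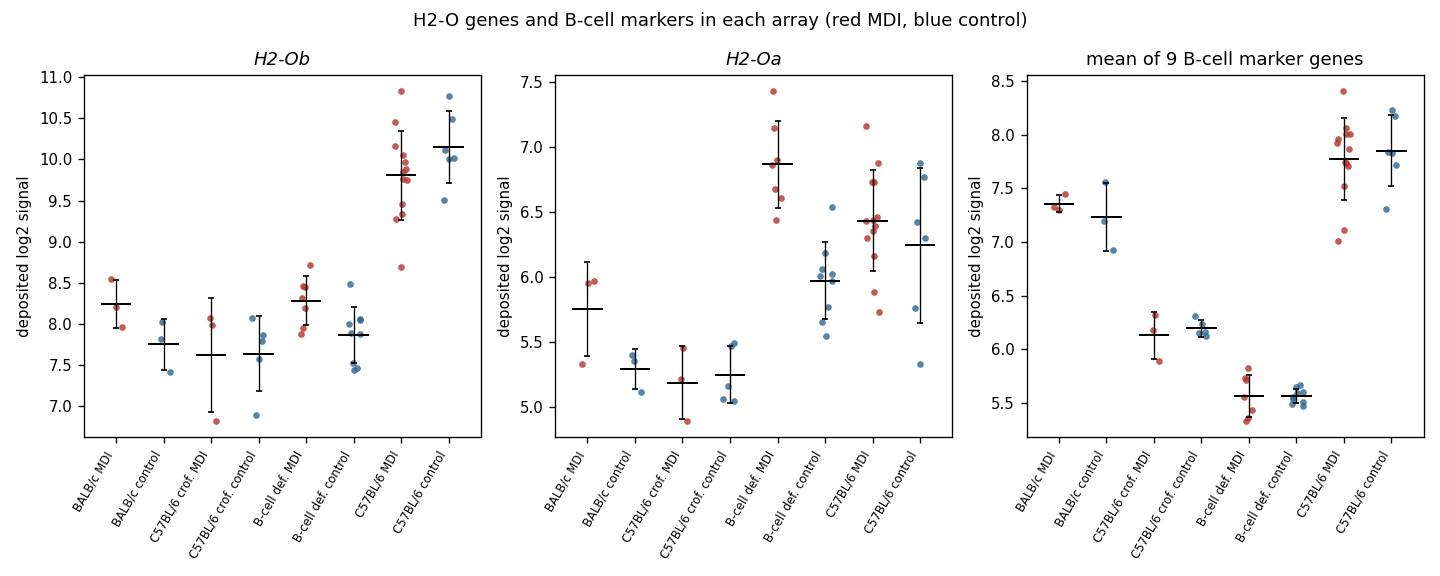
Deposited log2 signal of H2-Ob and H2-Oa and the mean of 9 B-cell marker genes (vertical axes) in each of 49 arrays, by group (horizontal axis), with group means and 1 SD. Among C57BL/6 mice, H2-Ob and the B-cell markers are both higher without crofelemer (H2-Ob at 8.69 to 10.83) than with it. BALB/c mice have H2-Ob at 7.41 to 8.55 with B-cell markers at 6.93 to 7.56. The sets of arrays differ in scale, so heights are not compared between genotypes here.

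Read across all 8 groups, H2-Ob stood higher in the C57BL/6 lungs without crofelemer than in all others after quantile normalization. On that scale it lay at 7.40 to 8.29 in B-cell deficient mice with MDI and 7.08 to 8.05 in their controls, at 7.10 to 8.35 with MDI and crofelemer and 7.17 to 8.39 in crofelemer controls, and at 8.17 to 8.61 in BALB/c mice with MDI and 7.66 to 8.23 in their controls. The C57BL/6 lungs without crofelemer lay at 8.99 to 10.87 with MDI and 9.62 to 10.77 in controls, so no array of another group reached them. H2-Oa had no such gap on the same scale, with 5.96 to 6.95 in B-cell deficient mice with MDI and 4.74 to 5.99 in their controls, against 5.92 to 7.29 in C57BL/6 mice with MDI and 5.57 to 6.98 in their controls. On deposited values H2-Ob had no gap either. There a B-cell deficient lung with MDI reached 8.72, and the lowest C57BL/6 MDI lung lay at 8.69. How many of all probe sets had a gap of this kind was not counted.

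Strain was compared in control lungs, where BALB/c (H2-d) and C57BL/6 (H2-b) differ in the sequence of the class II genes themselves. On quantile-normalized values 6 of the 9 genes were lower in BALB/c, against 11.9% of all probe sets. H2-Ab1 was 12.29 ± 0.03 (SD, n = 3) in BALB/c and 15.44 ± 0.27 (SD, n = 6) in C57BL/6, a difference of -3.15 ± 0.27 (adjusted p = 2.00e-13). H2-DMb1 was 11.27 ± 0.16 in BALB/c and 13.84 ± 0.38 in C57BL/6 (-2.57 ± 0.23, adjusted p = 7.89e-13). H2-Eb1, whose chain reaches the surface as I-E in BALB/c, was 10.82 ± 0.14 in BALB/c and 12.91 ± 0.35 in C57BL/6 (-2.09 ± 0.33, adjusted p = 2.47e-06). H2-Ob differed by -2.25 ± 0.28 (adjusted p = 1.68e-08) and Ctss, outside the H2 region, by -0.93 ± 0.29 (adjusted p = 0.0144); these 5 genes had no overlap, as had 13.9% of all probe sets. H2-DMa differed by -0.96 ± 0.33 (adjusted p = 0.0257), with overlap. H2-DMa did not pass without BALB/c replicate 1 or 3 or C57BL/6 replicate 2 (adjusted p = 0.0667, 0.124 and 0.0595), nor Ctss without BALB/c replicate 2 (adjusted p = 0.0629). Both depended on the scale: with arrays centred on their median, Ctss differed by -0.52 ± 0.30 (adjusted p = 0.193) and H2-DMa by -0.81 ± 0.33 (adjusted p = 0.0508), and on deposited values Ctss differed by -0.75 ± 0.31 (adjusted p = 0.0565). All BALB/c arrays were in lot 1, as were 4 of the 6 C57BL/6 controls.

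H2-Aa did not share the low signal of its partner chain in BALB/c. It was 14.71 ± 0.21 (SD, n = 3) in BALB/c and 15.05 ± 0.45 (SD, n = 6) in C57BL/6 (-0.33 ± 0.26, adjusted p = 0.380). Ciita differed by -0.29 ± 0.25 (adjusted p = 0.420) and H2-Oa by -0.57 ± 0.26, which did not pass either. H2-Oa depended on the scale: it was lower in BALB/c on deposited values (-0.96 ± 0.25, adjusted p = 0.00298), with arrays centred on their median (-0.72 ± 0.25, adjusted p = 0.0207) and without C57BL/6 replicate 3 (adjusted p = 0.0265). H2-DMb2, a neighbouring paralog of H2-DMb1 that is not among the 10 genes, went the opposite way to H2-DMb1: it was 13.31 ± 0.22 in BALB/c and 11.19 ± 0.30 in C57BL/6 (2.12 ± 0.26, adjusted p = 6.84e-09). The probe sequences were not analysed here, so a transcript's level and the match of its probes to each haplotype cannot be told apart. H2-DMb1 and H2-DMb2 are close paralogs that could share signal, which leaves both values uncertain. Within each strain the probe sets are the same, and there both H2-Ab1 and H2-Aa had every BALB/c MDI lung above every BALB/c control lung.

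The 9 genes varied together from array to array beyond the group means. After each gene was centred on its group mean, the 36 pairs of members had Pearson r between 0.24 and 0.84 over the 49 arrays, with a median of 0.64; this is a description, since arrays share processing and the lung's cell makeup. H2-Aa with H2-Ab1 had the highest r and H2-Ob with Ctss the lowest. H2-DMb1 followed the others most closely (median r 0.76) and H2-Ob least (0.41). The 6 genes outside the list whose centred signals were most like the mean of the 9 were Gm2a (r = 0.80), Slamf7 (0.80), Gpr35 (0.79), H2-DMb2 (0.78), Itgax (0.77) and Csf1r (0.77). Centred on the 4 sets of arrays only, which leaves the MDI effect in, they were H2-DMb2 (0.92), Itgax (0.91), Wdfy4 (0.91), Tbxas1 (0.91), Slamf7 (0.91) and Ly86 (0.90).

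Other genes of the pathway were counted from lists. Of 7 measured genes of antigen processing, 6 rose with MDI in B-cell deficient mice, 3 in C57BL/6 and 0 in BALB/c mice, beside 16.2%, 5.30% and 0.261% of all probe sets. Ifi30, a thiol reductase that unfolds antigens, rose by 1.55 ± 0.21 in B-cell deficient mice (adjusted p = 7.59e-08) and by 1.12 ± 0.20 in C57BL/6 mice (adjusted p = 8.75e-05). Lgmn, an asparaginyl endopeptidase, rose by 1.04 ± 0.15 in B-cell deficient mice (adjusted p = 4.07e-07) and 0.51 ± 0.15 in C57BL/6 mice (adjusted p = 0.0126). Ctsb, a lysosomal cathepsin, rose in both as well. Of 10 measured promoter factors, 3 rose in B-cell deficient mice, where 16.2% of all probe sets rose, and 3 fell in C57BL/6 mice, where 9.23% of all probe sets fell. Those that rose were Spi1 (1.05 ± 0.15), Irf8 (1.06 ± 0.21) and Irf1 (0.38 ± 0.11), transcription factors of myeloid and interferon-exposed cells. Those that fell were the RFX subunits Rfxank (-0.57 ± 0.16) and Rfx5 (-0.55 ± 0.19) and the NF-Y subunit Nfyc (-0.35 ± 0.11). Marchf1, a ubiquitin ligase that removes class II from the surface, rose by 1.33 ± 0.21 in B-cell deficient mice (adjusted p = 2.71e-06) and 0.93 ± 0.21 in C57BL/6 mice (adjusted p = 0.00112), and Cd83, which opposes it, rose by 0.96 ± 0.18 and 0.71 ± 0.17 (adjusted p = 3.62e-05 and 0.00337).

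Class I presentation was counted in the same way, and its counts were not tested against those of class II. Of 13 measured class I genes, 7 rose with MDI in B-cell deficient mice (16.2% of all probe sets rose), 1 rose in BALB/c mice (0.261%), and 0 rose and 2 fell in C57BL/6 mice (5.30% rose and 9.23% fell). In B-cell deficient mice H2-D1 rose by 1.51 ± 0.16 (adjusted p = 3.32e-10) and the immunoproteasome subunit Psmb8 by 1.45 ± 0.13 (adjusted p = 1.76e-12). In BALB/c mice the gene was H2-D1 (1.12 ± 0.26, adjusted p = 0.0352). With crofelemer against none, 8 of the 13 were lower with MDI (17.5% of all probe sets) and 8 in controls (21.4%), among them B2m, the light chain of class I (-0.77 ± 0.10 and -0.83 ± 0.09). Of 7 costimulatory genes, 4 rose with MDI in B-cell deficient mice (16.2% of all probe sets rose). In C57BL/6 mice 2 of the 7 rose and 1 fell (5.30% of all probe sets rose and 9.23% fell). Pdcd1lg2, a ligand of PD-1, rose by 3.43 ± 0.35 in B-cell deficient mice (adjusted p = 1.12e-10) and 2.04 ± 0.34 in C57BL/6 mice (adjusted p = 3.28e-05), and was lower with crofelemer than without it in MDI mice (-2.05 ± 0.44, adjusted p = 2.39e-04).

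Markers of antigen-presenting cells moved with MDI beside the class II genes. Of all probe sets, 16.2% rose in B-cell deficient, 5.30% in C57BL/6 and 0.261% in BALB/c mice, and 9.23% fell in C57BL/6 mice. In B-cell deficient mice 8205 of the 22206 probe sets passed in either direction. The counts below stand beside these shares. Of 10 dendritic cell markers, 6 rose in B-cell deficient mice, 5 in C57BL/6 and 0 in BALB/c mice. The mean of the 10 was 8.43 to 8.57 with MDI, against 7.48 to 8.06 in controls, in B-cell deficient mice, and 6.98 to 7.82 with MDI, against 6.68 to 7.37 in controls, in C57BL/6 mice. Of 7 markers of interstitial macrophages and monocytes, 5 rose in B-cell deficient, 4 rose and 1 (Ly6c2) fell in C57BL/6, and 3 rose in BALB/c mice. C1qb, a complement subunit made by interstitial macrophages, rose by 2.40 ± 0.20 in B-cell deficient mice (adjusted p = 5.00e-13), 1.66 ± 0.20 in C57BL/6 mice (adjusted p = 3.75e-08) and 1.99 ± 0.33 in BALB/c mice (adjusted p = 2.50e-04). The mean of the 7 was 10.17 to 10.41 with MDI, against 8.84 to 9.28 in controls, in BALB/c mice. Among 7 markers of alveolar type 2 cells, which also carry class II, 0 rose in these 3 settings and 2 fell in B-cell deficient, 3 in C57BL/6 and 0 in BALB/c mice. Sftpb, surfactant protein B, fell in B-cell deficient (-0.45 ± 0.10) and C57BL/6 mice (-0.63 ± 0.10). Of 6 alveolar macrophage markers, 4 rose in B-cell deficient, 0 in C57BL/6 and 1 in BALB/c mice, and of 5 T-cell markers, 4, 3 and 0 rose in the same 3 settings. Of 5 neutrophil markers, 1 rose in B-cell deficient mice and 1 rose and 2 fell in C57BL/6 mice. Of the 9 B-cell markers, 2 rose and 1 fell in B-cell deficient mice and none passed in C57BL/6 or BALB/c mice. In B-cell deficient mice, the counts of neutrophil and B-cell markers that rose were near the 16.2% of all probe sets. With crofelemer, 0 genes of any of these cell-type lists passed for MDI by limma, beside 0.0540% of all probe sets in either direction. The part of each cell type in the class II differences was not tested.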

How the data were processed

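The authors deposited log2 signals per probe set for 51 arrays; the Transcriptome Analysis Console made them, per the submitters' processing notes, and the version is not given in the sources used here, nor is the normalization. Deposited values ran from 1.86 to 20.91. Of 22206 probe sets, 19572 had 1 gene symbol and 2634 none, and each measured member had 1. The values were used as deposited within strain and genotype. Across strain and genotype they were first quantile-normalized over the 49 assigned arrays. Left out were 2 arrays whose labels contradict each other. One C57BL/6 MDI array (replicate 14) was kept as MDI by its title, exposure and description, against its source name.

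One limma (3.58.1, R 4.3.3) model of 8 group means was fitted to all probe sets with a trended prior and 41 residual degrees of freedom; tests were two-sided and adjusted by Benjamini-Hochberg, with a threshold of 0.05. Differences of MDI effects were contrasts of this model. Comparisons that use the same control or MDI arrays are not independent. The fit was tested on simulated data. Arrays give no counts, and their number limits the precision. Alternatives were other scalings, a filter on dim probe sets, array weights, only the compared groups, replicate and lot terms, lots alone, omission of narrow arrays and of each array in turn. All members were named; of each list up to 4 called genes with the smallest adjusted p could be named, and the 6 genes most like the members by Pearson r. Ly6c2, outside that rule, was named after its values were seen. The members and lists were chosen with earlier results of these data known. Promoter windows came from RefSeq (GRCm38.p6). Plots used Python 3.11.15 and matplotlib 3.10.9.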

Additional observations from a re-analysis of the deposited data

Results flagged for a closer look

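The effect of MDI differed between B-cell deficient and C57BL/6 mice by the test of the difference itself for 4 of the 9 genes: H2-DMa by 1.29, H2-Aa by 0.90, H2-Ab1 by 0.83 and H2-Oa by 0.71 on the log2 scale, each larger in B-cell deficient mice. The underlying changes were 1.47, 1.43, 1.48 and 0.90 in B-cell deficient mice and 0.18, 0.53, 0.64 and 0.19 in C57BL/6 mice. None of the 4 passed without the 4 B-cell deficient control arrays of narrowest spread, where the differences were 1.13, 0.67, 0.65 and 0.56. A search for a single outlying array covered 36 sets of values and found 0. Each set was 1 gene in 1 group of 4 to 10 arrays. The groups of 3 arrays and the 13 C57BL/6 MDI arrays were not searched.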

How the results depend on the processing

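Counts are of the 9 genes called. For MDI in BALB/c mice, 1 gene became 2 with arrays centred on their median, with quantile normalization or without dim probe sets, 5 with array weights, the compared groups alone or the replicate block, and 0 without any 1 array. For MDI in C57BL/6 mice, 5 became 2 with the replicate block or lot 1 alone, and 3 to 6 without 1 array. For the difference between these effects in B-cell deficient and C57BL/6 mice, 4 became 8 with the replicate block, 0 without the narrow arrays, and 1 to 6 without 1 array. For B-cell deficient against C57BL/6 controls, 5 became 8 with centring or the replicate block, 3 on deposited values, 2 without the narrow arrays, and 4 to 6 without 1 array. For the same genotypes with MDI, 2 became 1 with centring, the replicate block, lot 1 alone or lot as a fixed term, 6 on deposited values (5 higher and 1 lower), and 1 to 2 without 1 array. There, H2-Oa turned to a higher value on deposited values (0.43, adjusted p = 0.0181). The counts over all settings were 7 to 9 for MDI in B-cell deficient mice, 5 to 7 for crofelemer with MDI, 2 to 4 for crofelemer in controls and 5 to 7 for BALB/c against C57BL/6, and the genes called were not always the same: for crofelemer in controls, Ciita was lost in 9 of 18 fits and Ctss gained in 8, and for BALB/c against C57BL/6, deposited values lost Ctss and gained H2-Oa. The counts for MDI with crofelemer and for the other 2 differences of effects were 0 in every fit run. H2-Oa was not tested where dim probe sets were left out. For crofelemer with MDI, the count was 5 in each of the 7 settings other than omission of 1 array, against 6 as reported.

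Over all probe sets, counts of calls ranged over the settings other than omission of 1 array as follows: 55 to 283 (67 as reported) for MDI in BALB/c, 930 to 3776 (3225) in C57BL/6, 3780 to 8988 (8205) in B-cell deficient and 4 to 29 (12) in crofelemer mice. They were 2148 to 8199 (7232) for crofelemer with MDI, 6152 to 10609 (8669) for crofelemer in controls, and 4 to 122 (94), 2 to 183 (6) and 719 to 5173 (4502) for the differences of effects with crofelemer, in BALB/c and in B-cell deficient mice. Across genotype they were 4360 to 15822 (11031) in controls and 2772 to 17180 (6878) with MDI, and 3060 to 7573 (5316) for strain. Over 19 same-numbered pairs of arrays the deviations from the group means correlated at -0.263 to 0.184, with 6 above 0.1. Arrays of different numbers were not compared, so this does not settle whether replicate numbers pair the arrays. Lot 1 alone was not run for the difference of effects with crofelemer. The causes were not tested.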

Other observations

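Other class II genes outside the 10 followed the members in part. H2-DMb2 rose with MDI by 1.62 ± 0.20 in B-cell deficient mice (limma, adjusted p = 8.97e-09) and by 0.66 ± 0.19 in C57BL/6 mice (adjusted p = 0.0141), and was lower with crofelemer than without it in MDI mice (-1.24 ± 0.25, adjusted p = 7.67e-05). H2-Eb2, a beta chain gene next to H2-Eb1, was lower in BALB/c than in C57BL/6 controls (limma, -0.94 ± 0.22, adjusted p = 0.00128). Its signal was dim: the deposited mean was 4.32 in BALB/c controls, whose array medians were 6.71 to 6.735. The match of its probes to each haplotype was not analysed either. H2-Ea was not analysed here.

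The 2 arrays left out of all comparisons carried labels that contradict each other. The array titled as crofelemer with MDI, replicate 4, had log2 signals of 14.83 for H2-Aa, 13.01 for H2-Eb1, 7.77 for H2-Ob and 15.58 for Ctss. The array titled as MDI, replicate 13, had 15.94 for H2-Aa, 14.67 for H2-Eb1, 10.21 for H2-Ob and 16.22 for Ctss.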
